A study of Mus musculus with 8 samples.

Results

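The genes studied here encode 8 Toll-like receptors of the mouse, Tlr1, Tlr2, Tlr3, Tlr4, Tlr6, Tlr7, Tlr9 and Tlr13, and the LPS co-receptors Cd14 and Ly96. They were chosen by name, as the genes with probe sets annotated to exactly 1 of these symbols, and all 10 were found among 18193 measured genes. Where a gene has several probe sets, the brightest on average stands for it. Together they have 16 probe sets, because Tlr3, Tlr4 and Tlr7 have several, and the others serve as a check. The arrays were hybridised with RNA of macrophages grown from mouse bone marrow for 7 to 10 days with macrophage colony-stimulating factor at 10 ng/mL, and harvested by adherence. The 4 groups of 2 arrays are Tpl2-deficient cells with LPS, wild-type cells with LPS, unstimulated Tpl2-deficient cells and unstimulated wild-type cells. LPS came from Escherichia coli 0111:B4 and was used at 1 μg/mL. The labels give neither the LPS time of these arrays, nor the strain, age or sex of the mice, nor the design of the Tpl2 mutation. Replicates are labelled biological, but separate animals are not mentioned, so p-values measure the spread between these samples.

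Toll-like receptors bind conserved microbial molecules and signal through adaptor proteins to NF-kB and MAP kinases. Tlr4 binds LPS together with Ly96, also called MD-2, after Cd14 has passed LPS to the pair. Tlr2 pairs with Tlr1 or Tlr6 to bind bacterial lipopeptides at the cell surface, whereas Tlr3, Tlr7, Tlr9 and Tlr13 read nucleic acids in endosomes. Tpl2, encoded by Map3k8, is a kinase that these receptors use to activate MEK and ERK.

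Values are log2 RMA intensities, the signal of a probe set after background correction and normalization by the submitters, and they are compared between groups within a gene, not between genes. Precision is limited by the number of arrays. Array medians lay between 6.48 and 6.53, and all group means of the 10 genes were above them. The 2 LPS-treated Tpl2-deficient arrays stood apart from each other: the median SD of a gene was 0.129 in that group against 0.0649 to 0.0662 in the other groups. Among the 10 genes, replicate 2 of that group was higher than replicate 1 in 9, against 47.8% of all genes. In 9 of the 10, replicate 1 was also the farther from the wild-type LPS mean, against 50.8% of all genes. Map3k8, the targeted gene, had log2 intensities of 9.83 and 10.09 in LPS-treated Tpl2-deficient cells, against 11.01 and 10.91 in wild type. Unstimulated, it had 8.32 and 8.23 in Tpl2-deficient cells, against 9.27 and 9.28 in wild type. Its only probe set may lie outside the deleted part, which the labels do not place.

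Differences are log2 values with the standard error (SE) that limma estimated from the 8 arrays together, p-values were adjusted over all genes by the Benjamini-Hochberg method, and a gene passed at an adjusted p under 0.05. With LPS, 7 of the 10 genes rose and 2 fell in Tpl2-deficient macrophages, and the same numbers rose and fell in wild type. Over all genes, 16% rose and 25.8% fell with LPS in Tpl2-deficient cells, and 21.3% rose and 30.9% fell in wild type. The median difference of the 10 genes was 0.79 in Tpl2-deficient cells and 0.75 in wild type, beside 0.00 and 0.04 over all genes. In both genotypes the genes that rose were Tlr1, Tlr2, Tlr3, Tlr6, Tlr7, Cd14 and Ly96, and Tlr4 and Tlr13 were the pair that fell. Between the genotypes under LPS, Tlr4 and Tlr13 were lower and Ly96 higher in Tpl2-deficient cells, while 7 genes did not pass. Over all genes 8.01% were higher and 5.73% lower in that comparison. Centring the arrays on the hybridisation spike-ins moved the median of all genes to -0.24 for LPS in Tpl2-deficient cells and to -0.10 in wild type. It raised the share of lower genes among those called to 79.6%, against 61.8% as deposited, in Tpl2-deficient cells, and to 76.2%, against 59.2% as deposited, in wild type. The spike-in means also differed within a group, at 11.31 and 11.52 on the unstimulated wild-type arrays. The shifts are therefore not read as a change in the amount of RNA. The comparisons share arrays, so their counts are not independent. In bulk RNA, fewer cells of a type and less RNA per cell cannot be told apart.

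**Figure D1:**
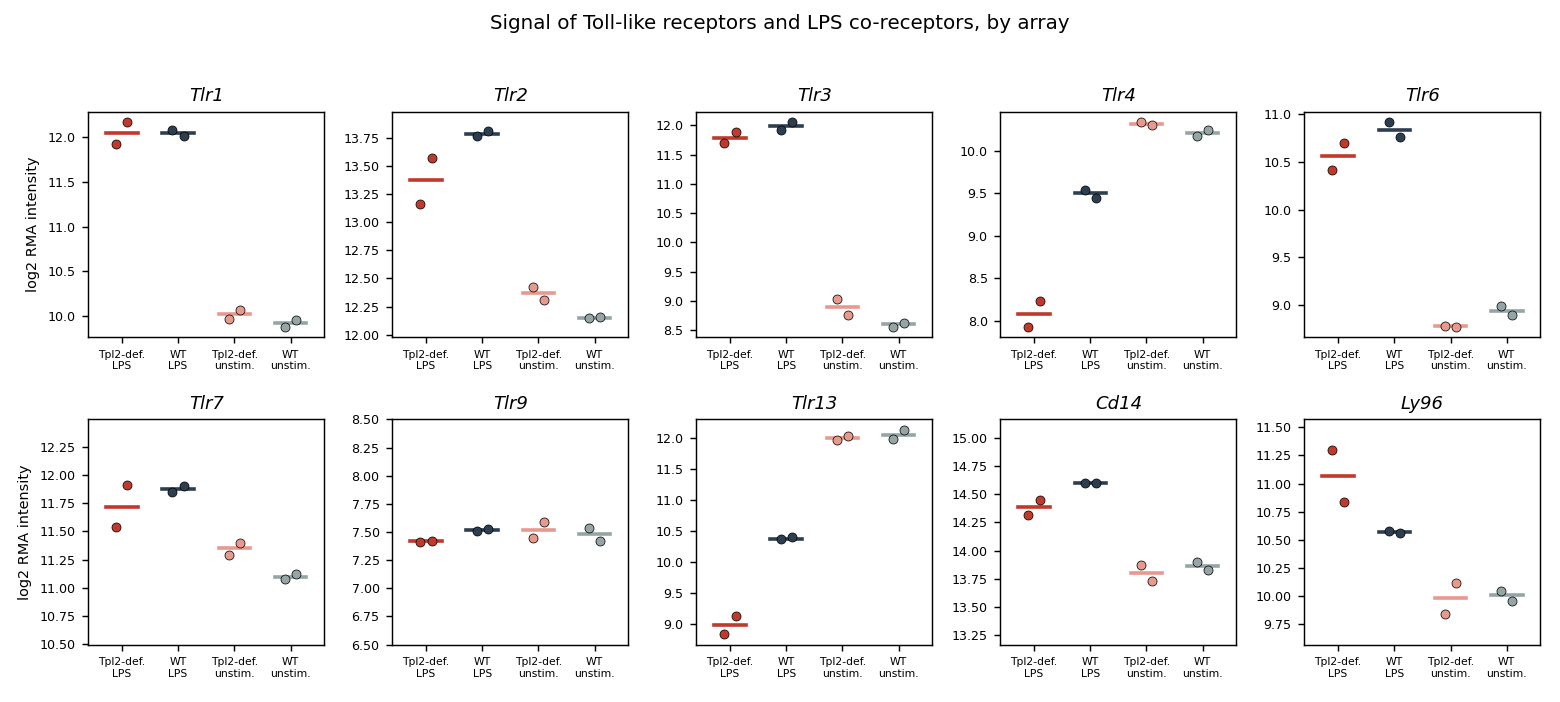
Log2 RMA intensity of the 10 genes on each of the 8 arrays (points) with group means (lines), in LPS-treated and unstimulated Tpl2-deficient and wild-type (WT) macrophages; each panel has its own axis, which does not start at 0. Tlr4 and Tlr13 fell with LPS and lay lowest in LPS-treated Tpl2-deficient cells, at means of 8.08 and 8.99, and Tlr9 stayed between 7.41 and 7.59.

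Tlr4, the signalling receptor for LPS, had log2 intensities of 7.93 and 8.23 in LPS-treated Tpl2-deficient cells, against 9.54 and 9.45 in LPS-treated wild-type cells. Without LPS it had 10.34 and 10.30 in Tpl2-deficient cells, against 10.18 and 10.24 in wild type. The genotypes lay close together at rest, both LPS-treated groups were below both unstimulated groups, and the LPS-treated Tpl2-deficient arrays were the lowest of all. LPS changed Tlr4 by -2.25 ± 0.12 (SE) in Tpl2-deficient cells (4.74-fold, adjusted p = 3.08e-08) and by -0.71 ± 0.12 in wild type (1.64-fold, adjusted p = 0.000307). Under LPS, Tpl2-deficient cells had 2.68-fold less Tlr4 signal than wild type (-1.42 ± 0.12, adjusted p = 1.19e-05). Without LPS the genotype difference was 0.11, with a 95% interval of -0.14 to 0.37 (adjusted p = 0.715).

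Tlr4 has 4 probe sets, which allow a check of its fall. The next brightest, 1418163_at, gave an LPS difference of -1.99 in Tpl2-deficient cells (adjusted p = 1.23e-06) and -0.57 in wild type (adjusted p = 0.0114). On 1442827_at, whose LPS-treated means were under the array medians so that its falls are lower bounds, the differences were -1.38 (adjusted p = 1.51e-05) and -0.54 (adjusted p = 0.0104). Between the genotypes under LPS 1418163_at gave -1.34 (adjusted p = 0.000185), and 1442827_at is not read there, since both LPS-treated groups were under the medians. The dimmest, 1430695_at, stayed between 4.02 and 4.37 on all arrays, under their medians, so it did not show expression, and its differences of 0.09 and 0.22 did not pass. With the mean of the 4 probe sets, the dim ones included, the LPS difference was -1.38 in Tpl2-deficient cells and -0.40 in wild type, and the responses differed by -0.98 (adjusted p = 0.00446). In wild type it was -0.44 with quantile normalization repeated on the 18193 genes (limma, adjusted p = 0.0054). The plot of LPS responses by probe set shows the 3 brighter ones falling together.

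**Figure D2:**
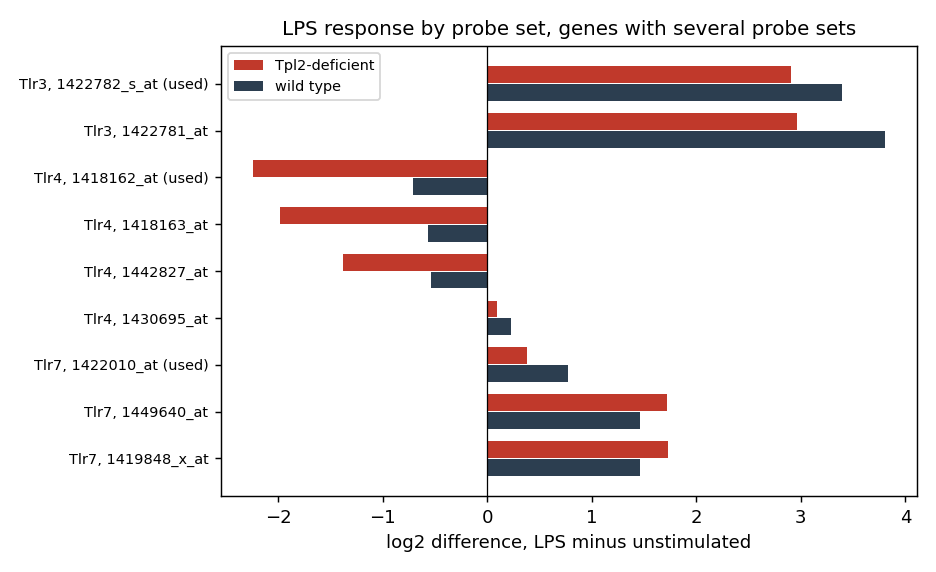
Log2 difference, LPS minus unstimulated, for each probe set of Tlr3, Tlr4 and Tlr7 in Tpl2-deficient and wild-type macrophages (bars from 0; differences of means of 2 arrays each). The 3 brighter Tlr4 probe sets fell in both genotypes. The 2 brightest fell more in Tpl2-deficient cells, by -2.25 and -1.99, than in wild type, by -0.71 and -0.57. The falls of 1442827_at, -1.38 and -0.54, are lower bounds and are not compared between the genotypes. The Tlr7 probe sets differed in size and in which genotype had the larger rise.

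Ly96, the partner that holds LPS in the complex, moved the opposite way to Tlr4. Its log2 intensities were 11.30 and 10.84 in LPS-treated Tpl2-deficient cells, against 10.58 and 10.56 in LPS-treated wild-type cells. At rest they were 9.84 and 10.12 in Tpl2-deficient cells, against 10.05 and 9.96 in wild type. The resting groups overlapped, and the LPS-treated groups did not. LPS raised Ly96 by 1.09 ± 0.15 in Tpl2-deficient cells (2.13-fold, adjusted p = 9.64e-05) and by 0.56 ± 0.15 in wild type (1.48-fold, adjusted p = 0.00824). Without replicate 2 of the unstimulated wild-type group the wild-type rise was 0.51 and did not pass (adjusted p = 0.055). The genotype difference under LPS was 0.51 ± 0.15 (1.42-fold, adjusted p = 0.0464). That call was lost in 11 of 16 alternative analyses, with adjusted p between 0.00696 and 0.197, and the difference was 0.28 without replicate 1 of the LPS-treated Tpl2-deficient group and 0.74 without replicate 2.

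Cd14, the surface protein that hands LPS to the receptor, lies on chromosome 18, as does the targeted gene, and was at 13.73 or above on every array. LPS-treated cells had 14.32 and 14.45 with Tpl2 deficiency, against 14.60 and 14.60 in wild type. Unstimulated cells had 13.87 and 13.73 with Tpl2 deficiency, against 13.90 and 13.83 in wild type. The treated arrays lay above the untreated ones in both genotypes, and the treated Tpl2-deficient arrays below the treated wild-type ones. Cd14 rose by 0.58 ± 0.10 in Tpl2-deficient cells (adjusted p = 0.000651) and by 0.74 ± 0.10 in wild type (adjusted p = 9.17e-05). With arrays centred on the hybridisation spike-ins the rise in Tpl2-deficient cells was 0.34 and did not pass (adjusted p = 0.0687). Its genotype difference under LPS was -0.21, with an interval of -0.44 to 0.01 (adjusted p = 0.236).

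The lipopeptide receptors rose together. Tlr2, the shared subunit, had log2 intensities of 13.16 and 13.57 in LPS-treated Tpl2-deficient cells, against 13.76 and 13.81 in wild type. Without LPS it had 12.42 and 12.31 in Tpl2-deficient cells, against 12.15 and 12.16 in wild type. Deficient arrays were thus the higher ones at rest and the lower ones under LPS. It rose 2.00-fold in Tpl2-deficient cells (1.00 ± 0.13, adjusted p = 6.73e-05) and 3.10-fold in wild type (1.63 ± 0.13, adjusted p = 1.02e-06). The genotype differences of Tlr2 were -0.42 ± 0.13 under LPS (adjusted p = 0.0589) and 0.21 ± 0.13 at rest (adjusted p = 0.499), and its LPS responses differed by -0.63 ± 0.18 (adjusted p = 0.0603). Neither the first nor the last of these passed, but both did without replicate 2 of the LPS-treated Tpl2-deficient group, at -0.62 and -0.84 (adjusted p = 0.00394 and 0.00545).

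Tlr1, the partner of Tlr2 for triacylated lipopeptides, had 11.92 and 12.17 in LPS-treated Tpl2-deficient cells, against 12.08 and 12.01 in wild type. At rest it had 9.97 and 10.07 in Tpl2-deficient cells, against 9.88 and 9.96 in wild type. The treated groups overlapped, and each lay far above both resting groups. Its rise was 4.08-fold in Tpl2-deficient cells (2.03 ± 0.11, adjusted p = 5.33e-08) and 4.36-fold in wild type (2.12 ± 0.11, adjusted p = 3.54e-08). Tlr6, the partner of Tlr2 for diacylated lipopeptides, had 10.42 and 10.70 in LPS-treated Tpl2-deficient cells, against 10.92 and 10.76 in wild type. Unstimulated, it had 8.78 and 8.77 in Tpl2-deficient cells, against 8.99 and 8.89 in wild type. The deficient arrays of Tlr6 were the lower ones in both states, without passing. It rose 3.44-fold in Tpl2-deficient cells (1.78 ± 0.12, adjusted p = 2.34e-07) and 3.74-fold in wild type (1.90 ± 0.12, adjusted p = 1.26e-07). Under LPS the genotype difference was 0.00 for Tlr1 (95% interval -0.25 to 0.25) and -0.29 for Tlr6 (-0.54 to -0.03, adjusted p = 0.155, and -0.42 with adjusted p = 0.0303 without replicate 2 of the LPS-treated Tpl2-deficient group).

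The sequences upstream of these genes are shown because the genes rose together. RefSeq start sites (GRCm38.p6) were found for 6 of the 10 genes, in 8 windows of 250 bases before the start: Tlr1, Tlr2, Tlr3, Tlr6, Tlr9 and Tlr13, while Tlr4, Tlr7, Cd14 and Ly96 are named only. Each window was searched on both strands for 5 motifs. These are an NF-kB core GGGANNTTC, an interferon response core GAAANNGAA, a STAT site TTCNNNGAA, an AP-1 site TGANTCA, and a PU.1 site spelled GAGGAAG. They occurred in 3.2%, 7.1%, 7.0%, 6.7% and 10.6% of all 32851 windows of the same length, in that order. Capitals mark the matches, which describe letters and are not shown to be used. Other spellings of these sites were not searched, so lower case does not mean that a stretch holds none. The Tlr2 window lies at chr3:83841609-83841858 and the first of the 2 Tlr6 windows at chr5:64959167-64959416, both on the minus strand and printed 5′ to 3′ towards the gene.
Tlr2: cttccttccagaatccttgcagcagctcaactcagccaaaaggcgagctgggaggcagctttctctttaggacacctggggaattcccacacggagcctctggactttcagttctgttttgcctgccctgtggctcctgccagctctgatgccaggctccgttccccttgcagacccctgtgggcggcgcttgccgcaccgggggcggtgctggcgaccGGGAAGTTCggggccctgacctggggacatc
Tlr6: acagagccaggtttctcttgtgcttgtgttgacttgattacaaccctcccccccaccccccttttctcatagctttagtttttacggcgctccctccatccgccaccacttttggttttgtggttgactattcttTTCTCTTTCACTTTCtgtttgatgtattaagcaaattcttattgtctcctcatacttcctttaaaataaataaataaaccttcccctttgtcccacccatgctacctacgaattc
Tlr2 holds an NF-kB core 31 bases before the start, and Tlr6 a pair of interferon response cores that overlap, starting 115 and 109 bases before the start. The other Tlr6 window holds no match, and the 2 Tlr1 windows hold a PU.1 match and a STAT match.

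The nucleic acid receptors took different courses. Tlr3, the receptor for double-stranded RNA, had 11.70 and 11.89 in LPS-treated Tpl2-deficient cells, against 11.92 and 12.06 in wild type. Unstimulated, it had 9.03 and 8.76 in Tpl2-deficient cells, against 8.56 and 8.63 in wild type. As for Tlr2, the deficient arrays were higher at rest and lower under LPS, without a gap to the wild-type arrays that passed. Its LPS rise had the highest measured value of the 10 genes, 7.47-fold in Tpl2-deficient cells (2.90 ± 0.12, adjusted p = 5.98e-09) and 10.5-fold in wild type (3.39 ± 0.12, adjusted p = 1.73e-09). The responses differed by -0.49 ± 0.17 (adjusted p = 0.108). The other Tlr3 probe set, 1422781_at, gave -0.84 for that difference (adjusted p = 0.0133) and -0.43 between the genotypes under LPS (adjusted p = 0.0385), where the one used, of the _s_at kind that may cross-hybridise, gave -0.20 (adjusted p = 0.386).

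Tlr13, which in the mouse reads bacterial ribosomal RNA, fell in every treated array. It had log2 intensities of 8.84 and 9.13 in LPS-treated Tpl2-deficient cells, against 10.37 and 10.40 in wild type. At rest it had 11.97 and 12.03 in Tpl2-deficient cells, against 11.98 and 12.13 in wild type. The resting groups overlapped, and the treated groups were separated by more than their spread. LPS lowered it 8.08-fold in Tpl2-deficient cells (-3.01 ± 0.12, adjusted p = 3.51e-09) and 3.18-fold in wild type (-1.67 ± 0.12, adjusted p = 3.74e-07). Under LPS Tlr13 was 2.63-fold lower in Tpl2-deficient cells (-1.40 ± 0.12, adjusted p = 1.54e-05), and at rest the difference was -0.05 (95% interval -0.31 to 0.21). The upstream windows of Tlr3 and Tlr13 are shown as those of the genes with the largest measured rise and fall. Tlr3 lies at chr8:45410381-45410630 on the minus strand and Tlr13 at chrX:106143025-106143274 on the plus strand.
Tlr3: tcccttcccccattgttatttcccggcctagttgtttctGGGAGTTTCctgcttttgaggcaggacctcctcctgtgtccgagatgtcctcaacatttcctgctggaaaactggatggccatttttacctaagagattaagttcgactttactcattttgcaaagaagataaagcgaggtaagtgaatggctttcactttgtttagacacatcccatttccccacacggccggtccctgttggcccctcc
Tlr13: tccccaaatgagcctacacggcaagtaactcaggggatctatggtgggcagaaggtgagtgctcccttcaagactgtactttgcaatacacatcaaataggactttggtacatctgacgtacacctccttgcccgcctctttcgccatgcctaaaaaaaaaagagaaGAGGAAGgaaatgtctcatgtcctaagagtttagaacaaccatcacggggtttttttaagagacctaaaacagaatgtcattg
Tlr3 holds an NF-kB core 211 bases before the start and Tlr13 a PU.1 match 83 bases before it. Of the 8 windows, 2 hold the NF-kB core, those of Tlr2 and Tlr3.

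Tlr7, which binds single-stranded RNA, had 11.54 and 11.91 in LPS-treated Tpl2-deficient cells, against 11.85 and 11.90 in wild type. Unstimulated, it had 11.29 and 11.40 in Tpl2-deficient cells, against 11.08 and 11.12 in wild type. The treated groups overlapped. It rose by 0.38 ± 0.13 in Tpl2-deficient cells (adjusted p = 0.0321) and by 0.77 ± 0.13 in wild type (adjusted p = 0.000313), and the first of these calls was lost in 7 of 19 alternatives, among them spike-in centring (0.14). Without replicate 2 of the LPS-treated Tpl2-deficient group it was 0.19 (adjusted p = 0.142). Its genotype difference under LPS was -0.15 (adjusted p = 0.544), and -0.34 without that array (adjusted p = 0.0458). The responses of Tlr7 differed by -0.40 ± 0.18 (adjusted p = 0.213), and by -0.58 without it (adjusted p = 0.0208). Its other probe sets gave larger rises: 1449640_at and 1419848_x_at each gave 1.72 in Tpl2-deficient cells, against 1.46 and 1.47 in wild type, so the order of the genotypes was turned round as well.

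Tlr9, the receptor for unmethylated DNA, ranged between 7.41 and 7.59 over all 8 arrays. Its LPS difference was -0.10 in Tpl2-deficient cells (95% interval -0.32 to 0.12) and 0.04 in wild type (-0.18 to 0.27), and neither passed. The wild-type value passed when quantile normalization was repeated (0.29, adjusted p = 0.0239). Tlr9 is also high in B cells and plasmacytoid dendritic cells, and their markers were read on the same arrays. In each group 4 of 6 measured B cell markers were under the array medians, but not the same 4. Ms4a1, Cd79a and Ebf1 were under them in all groups, Cd79b in all but unstimulated wild type, and Pax5 in unstimulated wild type only. In the other groups Pax5 averaged 6.59 to 6.84. The list summed to 38.76 to 39.25 and 38.92 to 39.23 in LPS-treated Tpl2-deficient and wild-type cells. Unstimulated, it summed to 39.43 to 39.67 and 39.52 to 40.05, in the same order of genotypes. Cd79a, a defining B cell gene, lay between 5.72 and 6.01, under the medians. Cd22 of the same list lay between 8.54 and 9.92, above them, and changed with LPS by -0.93 in Tpl2-deficient cells (adjusted p = 7.35e-05) and by -1.08 in wild type (adjusted p = 1.77e-05). The 6 plasmacytoid dendritic cell markers summed to 49.91 to 50.82 and 49.22 to 49.79 with LPS, and to 45.72 to 46.47 and 45.72 to 46.09 without it, in the same order of genotypes. None of the 6 was under the medians with LPS, and 2 were without it. Of these 3 rose with LPS in each genotype, Ccr9 (2.20 in Tpl2-deficient cells and 2.06 in wild type), Siglech (0.46 and 0.29) and Tcf4. Tcf4 was 0.76 higher in LPS-treated Tpl2-deficient cells (adjusted p = 0.000587). Their part in the results was not tested.

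**Figure D3:**
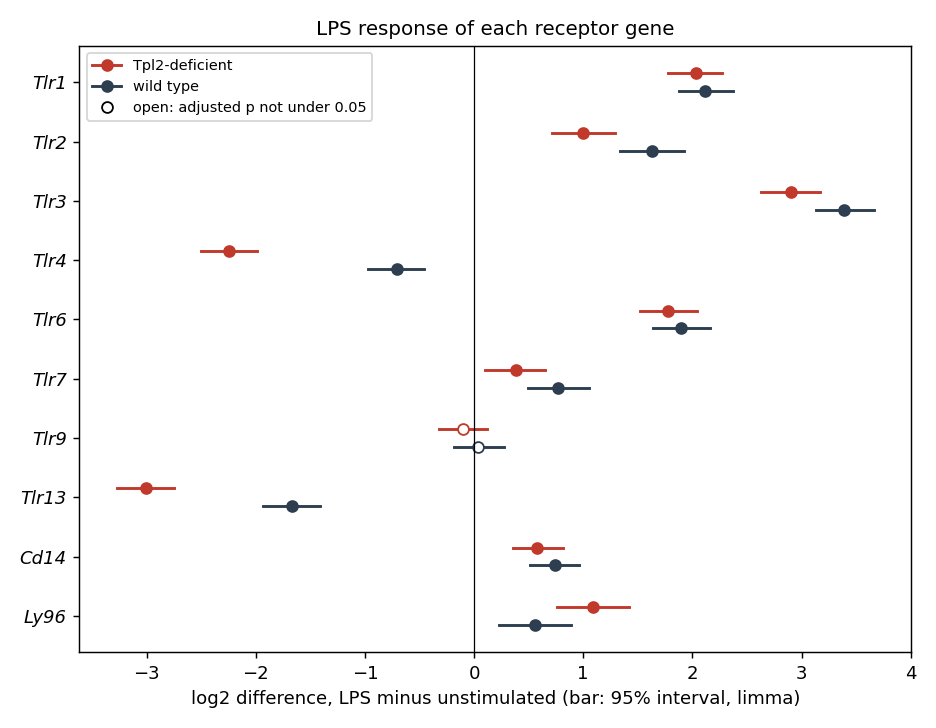
Log2 difference, LPS minus unstimulated, of each gene in Tpl2-deficient and wild-type macrophages, with 95% intervals from limma; filled points have an adjusted p under 0.05. The intervals of Tlr4 and Tlr13 lie left of 0, those of Tlr9 span 0, and those of the other 7 genes lie right of 0. Between the genotypes they are apart for Tlr4, Tlr13 and Tlr2, though the difference of the Tlr2 responses did not pass.

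The difference of the LPS responses was tested directly. For Tlr4 the response in Tpl2-deficient cells minus that in wild type was -1.53 ± 0.16 (adjusted p = 0.000225), and for Tlr13 it was -1.34 ± 0.17 (adjusted p = 0.000606). No gene of the 10 had a significantly more positive response in Tpl2-deficient cells by limma, although Ly96 had 0.53 ± 0.21 at an unadjusted p of 0.0293 (adjusted p = 0.161). Over all genes, 5.72% had a more positive and 2.87% a more negative response at an adjusted p under 0.05. At an unadjusted p under 0.05 the more negative responses among the 10 numbered 5, and the more positive 1, beside 8.07% and 14.8% of all genes. Without replicate 2 of the LPS-treated Tpl2-deficient group, 4 of the 10 genes were called more negative and 1 more positive, and 5 were lower between the genotypes under LPS. In that fit 5.06% of all genes were called more negative, 8.62% more positive and 8.24% lower between the genotypes under LPS. Among the 10, Ly96 then had 0.76 (adjusted p = 0.0222).

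At rest the comparison asks whether Tpl2 deficiency alone shifts the receptors. None of the 10 genes was called by limma, beside 0.154% of all genes higher and 0.346% lower, and 1 had an unadjusted p under 0.05, beside 4.96% of all genes higher and 8.48% lower at that p. This was Tlr3, 0.30 higher in Tpl2-deficient cells (95% interval 0.03 to 0.57, adjusted p = 0.322). For the others the differences ran between -0.17 for Tlr6 and 0.24 for Tlr7, and their intervals spanned 0 and reached at most 0.52 in size. The plot of genotype differences shows the resting values around 0 and Tlr4 and Tlr13 apart under LPS.

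**Figure D4:**
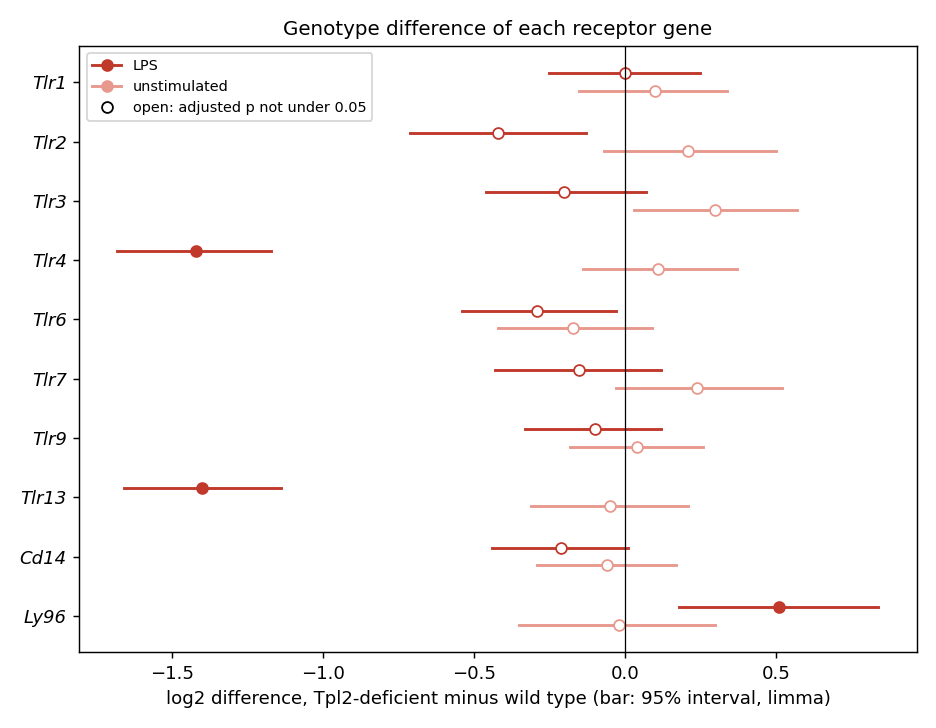
Log2 difference, Tpl2-deficient minus wild type, of each gene with LPS and unstimulated, with 95% intervals from limma; filled points have an adjusted p under 0.05. Under LPS, Tlr4 at -1.42, Tlr13 at -1.40 and Ly96 at 0.51 passed, and at rest no gene did.

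Tlr7 and Tlr13 are X-linked, so sex-linked genes were read too. Xist, transcribed from the inactive X chromosome of females, lay between 5.94 and 6.20 on all arrays, under their medians, while the Y-linked Eif2s3y lay between 9.65 and 10.41 and was 0.45 higher in LPS-treated Tpl2-deficient cells (adjusted p = 0.0393). Unstimulated, Eif2s3y averaged 10.37 in Tpl2-deficient cells, against 9.82 in wild type, and that difference did not pass. The 7 macrophage markers were above the medians in every group, and summed to 89.78 to 90.86 in LPS-treated Tpl2-deficient cells, against 90.58 to 90.67 in LPS-treated wild-type cells. Unstimulated, they summed to 90.83 to 91.10 in Tpl2-deficient cells, against 90.86 to 90.90 in wild type. The macrophage genes Csf1r and Cd68, among them, had levels of at least 13.85 on every array. Of the 7, Mertk was higher in LPS-treated Tpl2-deficient cells (11.26 against 10.26, adjusted p = 0.000727) and Itgam lower (8.54 against 9.24, adjusted p = 0.00108), which a sum does not show. As a sign of RNA integrity, the log2 ratio of 3′ to 5′ signal for Actb averaged 0.65 in LPS-treated Tpl2-deficient arrays, against 0.51 in LPS-treated wild-type ones, and 0.88 against 0.74 unstimulated. Of 7 measured neutrophil markers 5 were under the medians in every group, and the list summed to 46.72 to 47.65 in LPS-treated Tpl2-deficient cells, against 48.37 to 48.82 in LPS-treated wild-type cells. Unstimulated, it summed to 44.75 to 45.38 in Tpl2-deficient cells, against 44.36 to 44.72 in wild type. S100a8 of that list was lower in LPS-treated Tpl2-deficient cells (-1.14, adjusted p = 0.000142). The other 6 neutrophil markers did not pass in that comparison, among them S100a9 (5.67 against 5.66) and Camp (7.55 against 7.58). Of 5 stromal markers 1 rose with LPS, Pdgfrb, which averaged 10.16 and 8.96 in LPS-treated Tpl2-deficient and wild-type cells (adjusted p = 0.0152 between them), and 5.21 and 5.12, under the medians, in unstimulated ones. The stromal sums were 36.60 to 38.19 and 36.35 to 36.58 with LPS, and 30.78 to 35.96 and 32.94 to 33.20 without it, in the same order of genotypes. The other 4 stromal markers did not pass with LPS in either genotype, and Col1a2 averaged 7.95 and 7.90 with it, against 8.28 and 8.30 without. The sum of 35.96 was that of replicate 1 of the unstimulated Tpl2-deficient group. It had 8.88 for Col1a2 and 6.56 for Col3a1, against 7.68 and 4.82 in replicate 2. Of 5 measured conventional dendritic cell markers, 3 under the medians in every group, Itgax was lower in LPS-treated Tpl2-deficient cells (9.36 against 9.92, adjusted p = 0.0316), and the list summed to 33.80 to 34.19 there, against 34.38 to 34.40 in LPS-treated wild-type cells. The part of these measures in the falls of Tlr4 and Tlr13 was not tested.

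Among Toll-like receptor genes outside the 10, Tlr5, Tlr8 and Tlr12 were measured. Tlr8, an endosomal RNA receptor, had 7.50 and 8.25 in LPS-treated Tpl2-deficient cells, against 9.47 and 9.43 in wild type. Unstimulated, it had 8.61 and 8.65 in Tpl2-deficient cells, against 8.60 and 8.77 in wild type. The treated groups thus lay on opposite sides of the resting levels. LPS changed Tlr8 by -0.75 ± 0.19 in Tpl2-deficient cells (adjusted p = 0.00708) and by 0.76 ± 0.19 in wild type (adjusted p = 0.00552). The fall in Tpl2-deficient cells was -0.38 without replicate 1 of the treated arrays (adjusted p = 0.0194), and -0.51 with quantile normalization repeated, which did not pass (adjusted p = 0.0622). Under LPS it was 2.97-fold lower in Tpl2-deficient cells (-1.57 ± 0.19, adjusted p = 0.000196), and the responses differed by -1.52 ± 0.27 (adjusted p = 0.00534). Tlr5, the flagellin receptor, and Tlr12, which in the mouse senses profilin of parasites, did not pass in any of the 5 comparisons.

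Of 24 measured genes for receptor chaperones, trafficking, ligand handling and receptor-level regulation, 2 rose and 13 fell with LPS in each genotype, with a median of -0.37 in Tpl2-deficient cells and -0.28 in wild type. Over all genes, 16% rose and 25.8% fell in Tpl2-deficient cells, and 21.3% rose and 30.9% fell in wild type. Rab7b, a small GTPase that directs Tlr4 to lysosomes, had 8.30 and 8.37 in LPS-treated Tpl2-deficient cells, against 10.27 and 10.29 in wild type, and 12.41 and 12.34 against 12.55 and 12.44 at rest. It fell 16.4-fold in Tpl2-deficient cells (-4.03 ± 0.10, adjusted p = 1.44e-10) and 4.64-fold in wild type (-2.21 ± 0.10, adjusted p = 9.78e-09). With the mean of its probe sets it changed less, by -2.82 in Tpl2-deficient cells and -1.79 in wild type. Between the genotypes under LPS it differed by -1.94 ± 0.10 (adjusted p = 3.8e-07), and by -1.24 with the mean of its probe sets (adjusted p = 7.51e-06). Nrros, a receptor-like protein of the endoplasmic reticulum, fell 8.39-fold in Tpl2-deficient cells (-3.07 ± 0.18) and 2.74-fold in wild type (-1.46 ± 0.18). Cnpy3 and Cnpy4, chaperones of Toll-like receptors, also fell. The difference was -0.94 for Cnpy3 and -1.26 for Cnpy4 in Tpl2-deficient cells, against -1.34 for Cnpy3 and -1.64 for Cnpy4 in wild type. Between the genotypes under LPS, 4 of the 24 were higher in Tpl2-deficient cells, and 7 were lower, beside 8.01% and 5.73% of all genes. Slc15a4, an endolysosomal transporter, was among the higher ones (0.73 ± 0.11, adjusted p = 0.00132), but gave 0.26 with the mean of its probe sets and did not pass (adjusted p = 0.0773). At rest none of the 24 was called by limma, with 1 higher and 2 lower at an unadjusted p under 0.05. At that p 4.96% of all genes were higher and 8.48% lower.

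Of 9 measured adaptor and kinase genes, 4 rose and 3 fell with LPS in Tpl2-deficient cells, against 5 and 2 in wild type. The shares of all genes that rose and fell were 16% and 25.8% in Tpl2-deficient cells, and 21.3% and 30.9% in wild type. Myd88, the adaptor of most Toll-like receptors, rose 2.99-fold in Tpl2-deficient cells (adjusted p = 2.19e-07) and 3.54-fold in wild type (adjusted p = 6.33e-08). Irak3, an inhibitory kinase-like protein, had 10.41 and 10.92 in LPS-treated Tpl2-deficient cells, against 12.05 and 12.07 in wild type, and all its resting arrays lay between 9.60 and 9.67. Its treated arrays were lower in Tpl2-deficient cells by more than their spread (-1.40 ± 0.15, 2.64-fold, adjusted p = 6.61e-05). Tirap, which links Myd88 to Tlr2 and Tlr4, had 9.24 and 9.30 in LPS-treated Tpl2-deficient cells, against 10.16 and 10.15 in wild type (-0.88 ± 0.10, adjusted p = 8.52e-05). In that comparison 3 of the 9 were lower in Tpl2-deficient cells, and none was higher by limma, beside 5.73% and 8.01% of all genes. At an unadjusted p under 0.05, 1 was higher, beside 14.7% of all genes. The plot of these pathway genes shows their arrays.

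**Figure D5:**
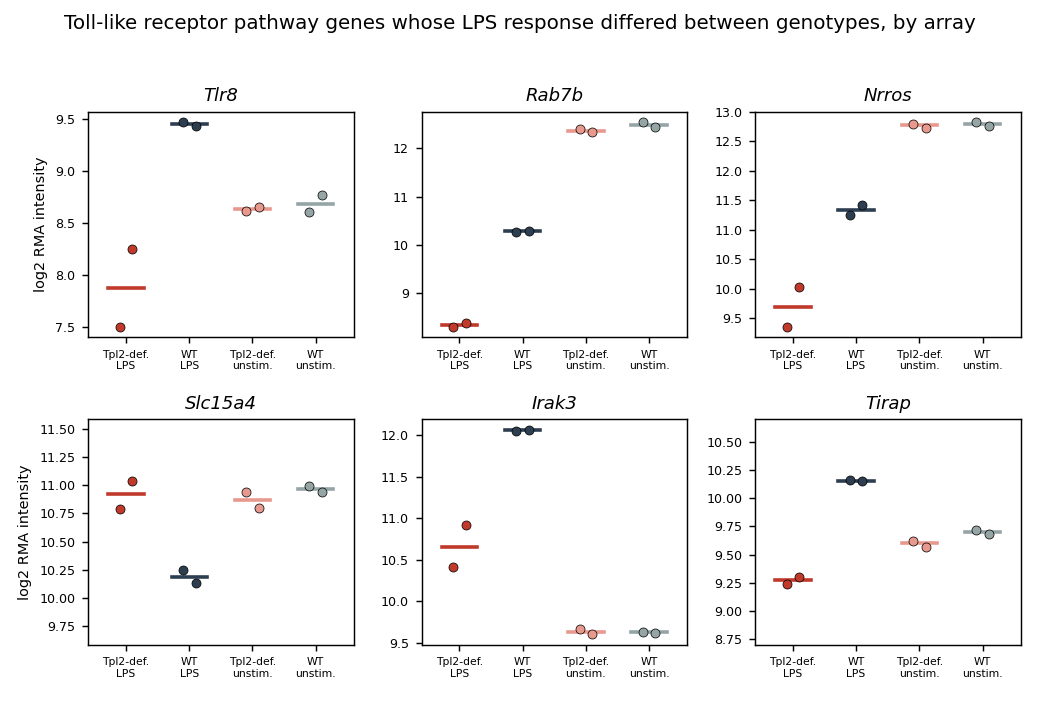
Log2 RMA intensity of 6 genes of the Toll-like receptor pathway on each of the 8 arrays (points) with group means (lines); each panel has its own axis, which does not start at 0. Tlr8, Rab7b, Nrros, Irak3 and Tirap were lower and Slc15a4 higher in LPS-treated Tpl2-deficient cells than in LPS-treated wild-type (WT) cells, while the unstimulated genotypes lay close together.

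The genes with profiles most like those of the receptors were found by the root mean square (RMS) difference over the 8 arrays. Each gene's mean was subtracted first, and genes under the array median, predicted genes and cDNA clones were left out. For Tlr4 the nearest of the rest were Sh2b3, Mapk14 and Cd200r1, with RMS differences of 0.079, 0.081 and 0.108 log2 units (Pearson r of 0.996, 0.999 and 0.993). Mapk14 encodes the p38α kinase and averaged 9.64 in LPS-treated Tpl2-deficient cells, against 10.95 in wild type. The genes nearest to Tlr13 were Arap3, Rab11fip5 and Wipf1, with RMS differences of 0.090, 0.140 and 0.141. Nearest to Tlr3 were Ddx58, the cytosolic RNA sensor RIG-I, Slc7a2 and Eif2ak2, the RNA-activated kinase PKR, at 0.085, 0.123 and 0.123. For Tlr2 they were Slc44a1, Tent5a and Pik3r6 (0.052, 0.081 and 0.095), and for Ly96 Dbr1, Apod and Rbis (0.072, 0.088 and 0.088). For Tlr1 they were Azi2, Tlk2 and Slc25a22 (0.070, 0.077 and 0.077), and for Tlr6 Slc11a2, Traf2 and Mapkapk2 (0.081, 0.085 and 0.089), the last a kinase downstream of p38. Cd14 was nearest to Pafah1b1, Ube4a and Dcaf13 (0.042, 0.050 and 0.058), and Tlr7 to Nup153, Lims1 and Lats1 (0.060, 0.065 and 0.072). Tlr9, whose profile was nearly flat, had lower correlations with its nearest genes, 0.870 for Ppp2r5e, 0.830 for Shmt1 and 0.753 for Qsox1. The 8 arrays fall into 4 groups that all genes share, and the likeness is given as a description.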

How the data were processed

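The deposited values are log2 intensities of 45101 Affymetrix probe sets on 8 arrays, scanned with GCOS and made with RMA by the authors, per the submitters' processing notes, which give no versions here. RMA brings all arrays to one distribution, so a shift of total RNA cannot be seen. Probe sets with exactly 1 gene symbol in the platform annotation (34958) were used, 34945 of them after leaving out controls, and the brightest of each gene over all arrays stood for it, giving 18193 genes. Groups were compared with limma 3.58.1 in R 4.3.3, in a fit of 4 group means to all 8 arrays with 4 residual and 6.87 prior degrees of freedom, moderated variances, and Benjamini-Hochberg adjustment. The fit was tested on simulated data with independent arrays and the same spread in every group. That test does not cover the wider spread of the LPS-treated Tpl2-deficient group. The 10 genes are all named. Of the pathway lists, up to 4 genes past the threshold are named per comparison by size of change. Per receptor the 3 genes of nearest profile are named, with predicted genes and cDNA clones left out. The members and lists were chosen with earlier results of these data known. Promoter windows are from RefSeq (GRCm38.p6). Alternatives were other probe set rules, quantile normalization repeated, spike-in centring, a filter on dim genes, array weights, the 4 arrays compared alone, leaving out each array in turn and the replicate number as a block. Quantile normalization was repeated on the 18193 genes only, not on all probe sets. A block with crossed replicate numbers was chosen after seeing the data. Protein sequences were not used here.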

Additional observations from a re-analysis of the deposited data

Results flagged for a closer look

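For 8 genes the LPS response differed between the genotypes by the direct test of that difference (limma, adjusted p under 0.05). More negative responses were called in 2 of the 10 genes and in 1 of the 3 other Toll-like receptor genes. They were also called in 2 of the 24 chaperone, trafficking and regulator genes and in 2 of the 9 adaptors and kinases. The more positive call was 1 of the 24. Over all genes 2.87% were more negative and 5.72% more positive. The response in Tpl2-deficient macrophages minus that in wild type was -1.53 for Tlr4, -1.34 for Tlr13, -1.52 for Tlr8, -1.82 for Rab7b, -1.61 for Nrros, -1.41 for Irak3 and -0.78 for Tirap on the log2 scale. With the mean of its probe sets Rab7b had -1.03 (adjusted p = 0.000603) and Tlr4 -0.98 (adjusted p = 0.00446). For Slc15a4 it was 0.82, the positive value among them, and it was 0.32 with the mean of its probe sets (adjusted p = 0.158). The Slc15a4 call was also lost without replicate 2 of the unstimulated Tpl2-deficient group (0.75, adjusted p = 0.0597) and without replicate 2 of the LPS-treated wild-type group (0.76, adjusted p = 0.0572). Groups of 2 arrays are too small to test for an outlying array.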

How the results depend on the processing

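Of the values for single genes recomputed under the alternatives, 1362 stayed on their side of the threshold, 31 lost a call, 15 gained one, and 2 called values changed sign. Of the 1362, 28 changed sign without passing in either setting. The 2 were the LPS differences of the dim Tlr4 probe set 1430695_at, at 0.093 in Tpl2-deficient cells and 0.222 in wild type. The count of genes higher in Tpl2-deficient cells under LPS, 1 as reported (Ly96), was 0 with quantile normalization repeated, with array weights, with only the 4 arrays compared and with the replicate block, where Ly96 had an adjusted p of 0.0537. Leaving out single arrays, it ranged from 0 to 1, the count of lower genes from 2 to 5, that of more positive LPS responses from 0 to 1 and that of more negative ones from 2 to 4. The highest of these counts came without replicate 2 of the LPS-treated Tpl2-deficient group. Same-numbered arrays did not deviate together (correlations from -0.12 to 0.10), so the numbers were not taken as pairs. With the block crossed for that group, chosen after seeing the data, 7 genes rose and 2 fell with LPS in Tpl2-deficient cells. The interaction was not fitted with 4 arrays alone. For Tlr3 the response difference passed with the mean of its probe sets (-0.665, adjusted p = 0.0291), and for Tlr2 with dim genes left out (-0.63, adjusted p = 0.0407). The cause of these changes was not tested. With 2 arrays a group, genotype differences under LPS as small as those of Cd14 (-0.21) and Tlr7 (-0.15) did not pass.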
